A study of Mus musculus with 4 samples.

Results

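The 42 collagen genes measured in these mouse hearts were compared between mice carrying a Ser9Ala replacement in the kinase GSK-3beta and wild-type mice. They were every gene whose annotated symbol has the form of a collagen alpha chain (such as Col1a1), and 82 probe sets carried such a symbol as their only one. They stand among 18193 genes in all, each read from its probe set of highest mean. The study hybridised total heart RNA to Affymetrix 3' expression arrays, namely 2 samples of the genotype GSK-3beta S9A, the knock-in, at an age of 3.5 months and 2 wild-type samples at 3.6 months, all of strain C57B6 and taken at baseline. The slightly different ages and the genotype cannot be told apart. The same wild-type hearts also served as controls of a sister comparison with a GSK-3alpha knock-in, and their arrays were normalized here with the GSK-3beta knock-in arrays alone. Sex, zygosity and the number of animals behind each sample are not given in the sources used here, so the p-values below reflect only how far these particular samples differ, which may be technical. Values are RMA log2 values, on which a step of 1 is a doubling. RMA gives no detection call, so even a transcript that is missing from the tissue gets a value, and values of different probe sets are not compared with each other as amounts. The 8 cardiomyocyte markers checked (Myh6, Actc1, Tnnt2, Tnni3, Ryr2, Myl2, Myl3 and Pln) all lay on the brighter side of the gene median, with a log2 summed level from 17.35 to 17.38 in wild-type and from 17.39 to 17.43 in knock-in arrays.

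Collagens are secreted proteins whose alpha chains wind around each other into a stiff helix. Fibrillar collagens assemble into the banded fibres that carry tension between cardiomyocytes, and in heart they are made mainly by fibroblasts. Basement membrane collagens form the sheet-like network that surrounds each cardiomyocyte and capillary, to which endothelial cells and other vessel cells contribute. Other collagens attach to fibrils, form beaded filaments or short-chain networks, or stay in the cell membrane. The kinase GSK-3beta is held inactive when its serine 9 is phosphorylated, a site that the knock-in allele lacks.

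No collagen gene passed the test over all genes, where 1 of 18193 genes passed (0.00550%), with the smallest adjusted p among collagens at 0.415 (limma, Benjamini-Hochberg over all genes). The lowest differences were those of the type IV chains Col4a1 and Col4a2, the fibrillar Col5a3 and Col3a1 and the multiplexin Col15a1, and the highest was that of Col14a1. Of the 42 genes, 31 had a lower mean in knock-in hearts and 11 a higher one, while 49.6% of all genes were lower. Their median difference (knock-in minus wild-type, log2) was -0.06, and that of all genes was 0.00. The difference was larger among the 19 collagens whose mean lay above the median of all genes, called the brighter collagens here, of which 15 were lower and 4 higher (median -0.16), beside 42.8% lower among all genes of that brightness (median 0.02). With each array centred on its median the lower counts became 25 of 42 and 13 of 19 (59.5% and 68.4%), beside 38.0% of all genes and 32.2% of the brighter ones. Quantile normalization left 28 of 42 and 15 of 19 lower, beside 48.0% and 49.2%. The arrays of the groups did not overlap in 12 of the 42 collagens, beside 36.5% of all genes. In 11 of them the knock-in arrays were the lower, beside 17.0%, and in 1 the higher, beside 19.6%. In the 19 brighter collagens these counts were 9 and 1, beside 17.2% and 26.7% of genes of that brightness. An unadjusted limma p under 0.05 was reached by 5 collagens, beside 7.39% of all genes. These were Col4a1, Col4a2, Col5a3 and Col6a1, with lower values (2.99% of all genes, 3.66% of the brighter), and Col14a1, with a higher one (4.40% and 6.07%).

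**Figure D1:**
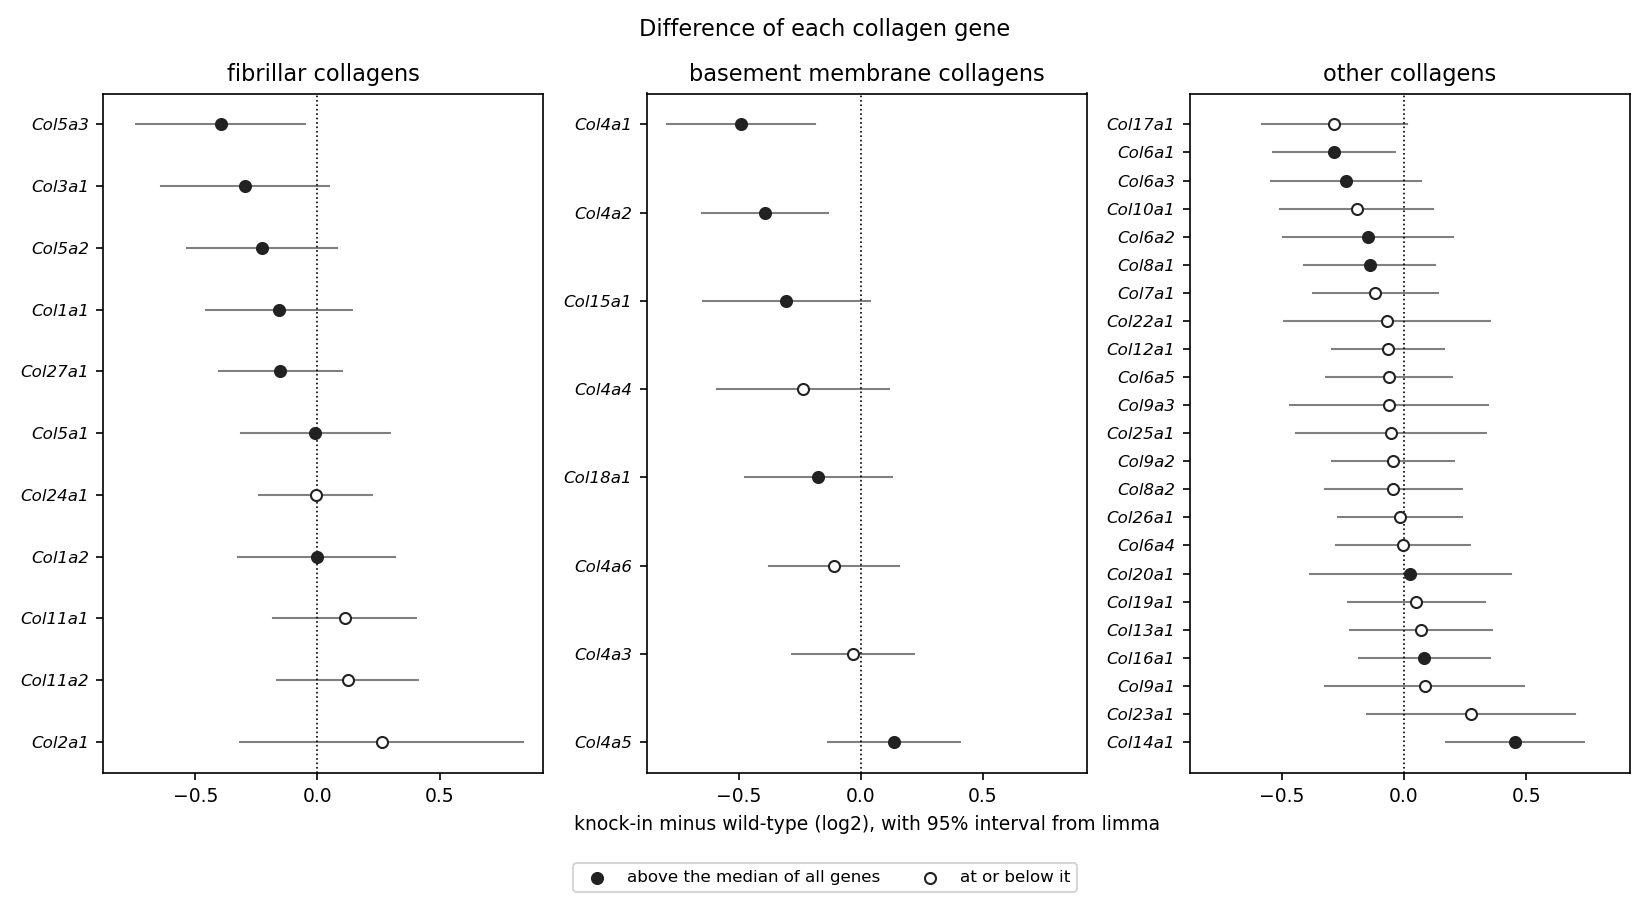
Difference of each of the 42 collagen genes between knock-in and wild-type hearts (log2, points) with its 95% interval from limma (lines), by collagen class, with filled points for genes above the median of all genes. The interval lies below 0 for Col4a1, Col4a2, Col5a3 and Col6a1 and above 0 for Col14a1, and it holds 0 for the other 37 genes.

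The 3 classes were set by the proteins' known structure. The 8 basement membrane genes had a median difference of -0.20, with 7 lower and 1 higher. The 11 fibrillar genes had a median of -0.01, with 8 lower and 3 higher, and the 23 others a median of -0.05, with 16 lower and 7 higher. Among the brighter genes alone the medians were -0.30 for 5 basement membrane, -0.16 for 7 fibrillar and -0.14 for 7 other collagens. The 4 dim fibrillar genes had a median of 0.12. The classes were not tested against each other, and their ranges overlap, from -0.49 to 0.14 in the basement membrane class, from -0.40 to 0.26 in the fibrillar class and from -0.29 to 0.45 in the others. Averaged over its brighter members, the basement membrane class was at 10.46 and 10.39 in wild-type and at 10.12 and 10.24 in knock-in hearts. The fibrillar class was at 9.78 and 9.66 and then at 9.46 and 9.63, and the others at 9.15 and 9.02 and then at 9.01 and 9.09. The knock-in averages thus lay below both wild-type averages in the first and second of these classes and on either side of wild-type 2 in the third. The medians moved with single arrays, by amounts that differed between classes and arrays. Leaving out wild-type 1 gave -0.02 over all 42 genes, and leaving out wild-type 2 gave -0.18. The fibrillar median was 0.0293, with 5 of 11 genes lower, where arrays were centred. With the deposited values it became 0.0188 on leaving out wild-type 1 and -0.16 on leaving out wild-type 2. It became -0.05 on leaving out knock-in 1 and -0.10 on leaving out knock-in 2. The basement membrane median came to -0.12 when either wild-type 1 or knock-in 1 was dropped, and to -0.28 when either of the others was. For the other collagens, centring the arrays gave -0.0157, dropping wild-type 1 gave 0.0029, dropping wild-type 2 gave -0.13 and dropping knock-in 2 gave 0.0011.

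**Figure D2:**
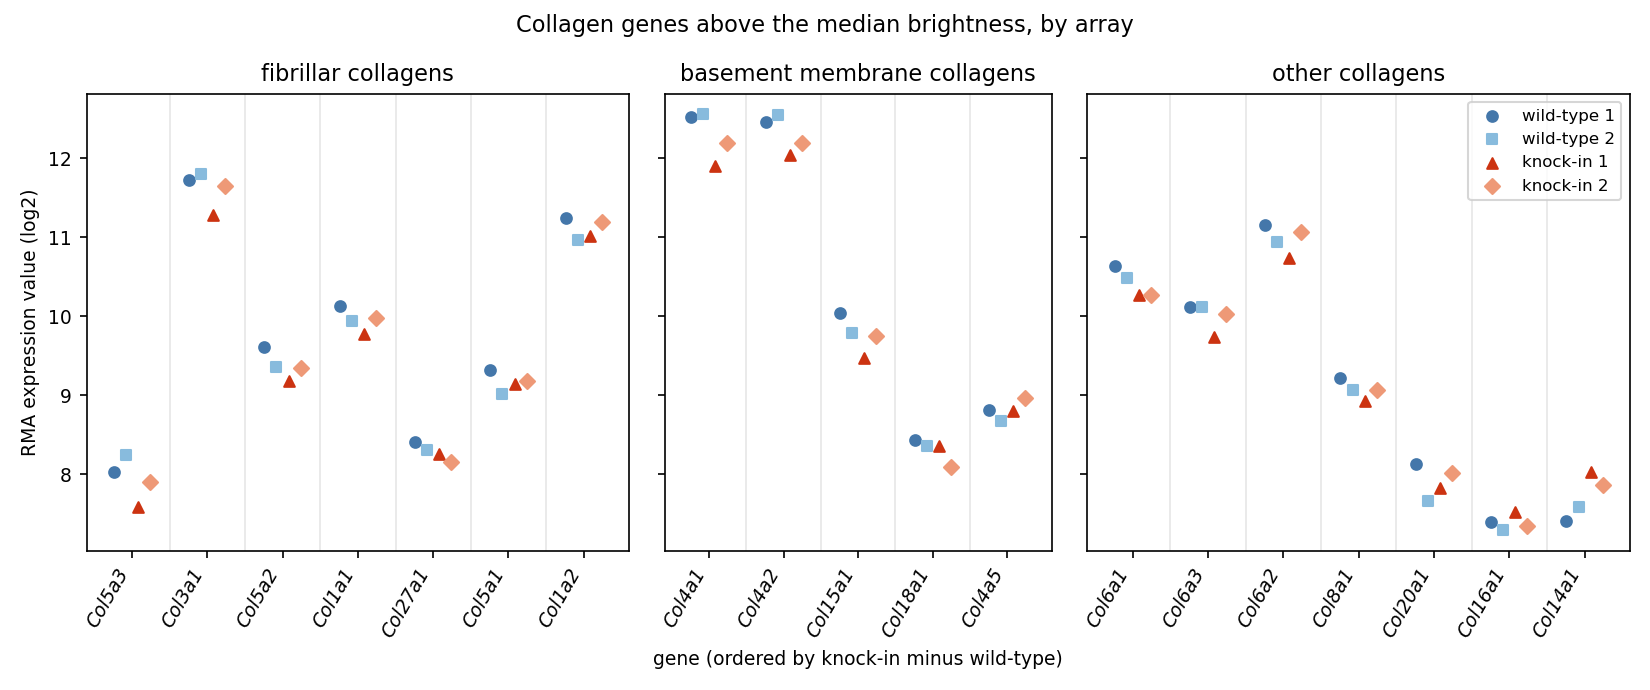
RMA log2 value of each of the 19 brighter collagen genes in each of the 4 arrays, by class and ordered within a class by the difference. The knock-in arrays both lie below the wild-type arrays in 9 of the 19 genes and above both in Col14a1.

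Among the basement membrane collagens the lower values were those of Col4a1 and Col4a2, which encode the alpha chains of the type IV molecule found in nearly all basement membranes. Col4a1 was at 12.52 and 12.56 in wild-type and at 11.90 and 12.20 in knock-in hearts. Its difference of -0.49 (95% interval from -0.79 to -0.19, 1.40-fold lower) had an unadjusted limma p of 0.00726 and an adjusted p of 0.416. Col4a2 was at 12.46 and 12.55 in wild-type and at 12.04 and 12.19 in knock-in hearts. Its difference was -0.39 (from -0.65 to -0.13, 1.31-fold lower), with an unadjusted p of 0.00971 and an adjusted p of 0.445. In both genes the wild-type arrays lay close together and above both knock-in arrays, of which knock-in 1 was the lower. The second probe set of Col4a1 gave 11.75 and 11.77 against 11.03 and 11.61, a difference of -0.43. Over 13 fits, the main one and 12 alternatives, the difference ran from -0.64 to -0.34 for Col4a1 and from -0.47 to -0.31 for Col4a2. Without knock-in 1 the difference was -0.34 for Col4a1 and -0.31 for Col4a2, and neither was then at an unadjusted p under 0.05. Col4a1 also lost that p in the fit on the probe set listed first, its second one.

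Col4a1 and Col4a2 are neighbours transcribed away from each other from a shared start region, which is shown because these are the collagens of lowest p with lower values. RefSeq places their starts at either end of the following stretch of chr8:11312805-11312826 (GRCm38.p6, plus strand, 22 bases), Col4a2 reading onward from its left end and Col4a1, on the minus strand, from its right end. Capitals mark a GC box, GGGCGG, a short element that factors of the Sp family can bind. The stretch lies downstream of both starts, so this GC box is outside the 250 upstream bases counted below.
Col4a1 and Col4a2 starts: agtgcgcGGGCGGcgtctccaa
A GC box in either orientation (GGGCGG or CCGCCC) was found in the 250 bases upstream of the start in 32.7% of 32851 RefSeq windows of that length. It was found for 20 of the 33 collagen genes with such a window, 10 of them among the 16 brighter ones. The collagen counts are of genes with a match in any of their windows (36 in all), while the share is of single windows. A match is only a description of the letters.

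The remaining type IV chains did not follow Col4a1 and Col4a2 in size. Col4a5, which with Col4a3 and Col4a4 makes the type IV molecule of kidney and some other basement membranes, was at 8.82 and 8.68 in wild-type and 8.81 and 8.96 in knock-in hearts. The groups overlapped, and the difference was 0.14 (from -0.13 to 0.41). Its chromosomal neighbour Col4a6, whose start lies 1343 bases away in RefSeq, had a mean at or below the median of all genes and a difference of -0.11. The other dim chains differed by -0.24 in Col4a4 and -0.03 in Col4a3, with overlapping arrays. Col15a1 and Col18a1 encode multiplexins, proteoglycan collagens that link basement membranes to the tissue beneath. Col15a1 was at 10.04 and 9.79 in wild-type and at 9.47 and 9.75 in knock-in hearts, a difference of -0.30 (from -0.65 to 0.04), with knock-in 2 only just below wild-type 2. Col18a1, the source of the endostatin fragment, was at 8.44 and 8.36 against 8.36 and 8.09, a difference of -0.17, and a second probe set differed by -0.00546.

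All 7 brighter fibrillar collagens had a lower mean in knock-in hearts, although the differences of Col1a2 and Col5a1 were -0.00332 and -0.00939 and turned to 0.0354 and 0.0293 with each array centred on its median. Col3a1, the chain of the fine type III fibres abundant in heart, was at 11.72 and 11.80 in wild-type and at 11.28 and 11.65 in knock-in hearts. Its difference was -0.30 (from -0.64 to 0.05, 1.23-fold lower, adjusted p of 0.716 from limma). The knock-in arrays lay below both wild-type arrays, knock-in 1 by the wider margin. Its other probe set, much dimmer, differed by -0.43.

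Type I collagen is the main fibre of scar and of the interstitium, and its chains differed little. Col1a1 was at 10.13 and 9.94 in wild-type and at 9.77 and 9.98 in knock-in hearts, a difference of -0.16 (from -0.45 to 0.14). Col1a2 was at 11.24 and 10.97 against 11.01 and 11.20, with a difference from -0.32 to 0.32 in its 95% interval, and the arrays of each gene overlapped between the groups. The second probe set of Col1a1 was lower without overlap (-0.28).

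Type V collagen sits inside type I fibres and sets their diameter, and Col5a3 showed the lowest difference of the fibrillar class. Col5a3 was at 8.03 and 8.25 in wild-type and at 7.58 and 7.90 in knock-in hearts. Its difference was -0.40 (from -0.74 to -0.05, 1.32-fold lower), with an unadjusted limma p of 0.0308 and an adjusted p of 0.594. The arrays of the groups did not overlap, and a second, dim probe set differed by -0.00880. With probe sets averaged the difference was -0.20, and without wild-type 2 or knock-in 1 (-0.24) the unadjusted p was above 0.05. Col5a2 was at 9.61 and 9.36 against 9.18 and 9.34, a difference of -0.23, with knock-in 2 only just below wild-type 2, and its second probe set differed by -0.49. Col5a1 was at 9.32 and 9.02 against 9.14 and 9.18, whereas its 2 other probe sets differed by -0.26 and -0.24. The probe sets of Col5a1 therefore disagreed in size. Col27a1, a fibrillar collagen best known from cartilage, was at 8.41 and 8.30 against 8.26 and 8.15, a difference of -0.15 without overlap.

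The upstream bases of Col5a3 are shown because it was the fibrillar gene of lowest p. They are 200 bases from chr9:20815118-20815317 (GRCm38.p6, RefSeq, minus strand), written 5' to 3' toward the gene, and the 50 bases next to the start were left out because a transcript of the gene may reach into them. Capitals mark 1 CCAAT box and 1 GC box, the latter read as CCGCCC.
Col5a3 upstream: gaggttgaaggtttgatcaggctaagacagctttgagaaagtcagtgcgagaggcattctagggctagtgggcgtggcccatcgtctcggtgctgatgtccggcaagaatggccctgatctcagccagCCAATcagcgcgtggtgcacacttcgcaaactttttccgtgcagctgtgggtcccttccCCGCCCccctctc
A CCAAT box in either orientation (CCAAT or ATTGG) was found upstream in 33.8% of all windows and in 13 of the 33 collagen genes. The latter is again a count of genes, not of windows.

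The 4 dim fibrillar genes, Col2a1, Col11a1, Col11a2 and Col24a1, had differences from -0.01 to 0.26, and their arrays overlapped between the groups. All but Col24a1 are best known from cartilage, and Col2a1 varied most within the groups, at 6.16 and 5.69 in wild-type and 6.50 and 5.88 in knock-in hearts.

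Among the other collagens, type VI had lower values and Col14a1 a higher one. Type VI collagen forms beaded filaments that tie the cell surface and basement membrane to the fibres around muscle cells. Col6a1 was at 10.63 and 10.48 in wild-type and at 10.27 and 10.27 in knock-in hearts. Its difference was -0.29 (from -0.54 to -0.04, 1.22-fold lower), with an unadjusted limma p of 0.0311 and an adjusted p of 0.596. The knock-in arrays nearly coincided and lay below both wild-type arrays, and the unadjusted p was above 0.05 without wild-type 1 (-0.21), knock-in 1 or knock-in 2. Col6a3 was at 10.12 and 10.12 in wild-type and at 9.73 and 10.03 in knock-in hearts, a difference of -0.24 without overlap. Col6a2 was at 11.15 and 10.94 against 10.74 and 11.06, a difference of -0.15 with overlap, which became 0.0147 without knock-in 1. These chains assemble with each other, and the intervals of their differences overlap. The dim Col6a4 and Col6a5 differed by -0.00436 and -0.06.

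The upstream bases of Col6a1 are shown because it was the type VI gene of lowest p. The 250 bases are chr10:76726045-76726294 (GRCm38.p6, RefSeq, minus strand), written 5' to 3' toward the gene. They hold no CCAAT box, GC box or TATA box (TATAAA or TTTATA, found in 12.4% of all windows), so none of the letters is in capitals.
Col6a1 upstream: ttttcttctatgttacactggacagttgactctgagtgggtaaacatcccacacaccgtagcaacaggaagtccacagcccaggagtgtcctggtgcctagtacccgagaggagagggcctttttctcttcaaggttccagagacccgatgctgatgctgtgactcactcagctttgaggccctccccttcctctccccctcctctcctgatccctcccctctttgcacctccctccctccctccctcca

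Col14a1, a fibril-associated collagen that coats the surface of type I fibres, went the other way. It was at 7.41 and 7.58 in wild-type and at 8.03 and 7.87 in knock-in hearts. Its difference of 0.45 (from 0.17 to 0.74, 1.37-fold higher) had an unadjusted limma p of 0.00716 and an adjusted p of 0.415. Both knock-in arrays lay above both wild-type arrays, here with knock-in 1 the higher. Its dimmer probe sets differed by 0.10 and -0.02, and with all 3 averaged the difference was 0.18, which, as without knock-in 1, left the unadjusted p above 0.05. Col16a1 and Col20a1, also fibril-associated, differed by 0.08 and 0.03 with overlapping arrays. Col8a1, a short-chain collagen of vessel walls, was at 9.22 and 9.06 against 8.93 and 9.07, a difference of -0.14 with overlap.

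The other 16 genes of this class lay at or below the median of all genes, with differences from -0.29 (the transmembrane Col17a1) to 0.27 (the transmembrane Col23a1). Of these 12 were lower and 4 higher, none had an unadjusted limma p under 0.05, and Col12a1 and Col17a1 alone were lower without overlap. The fibril-associated Col9a1, Col9a2, Col9a3, Col12a1, Col19a1 and Col22a1 lay between -0.07 and 0.09. Over all 23 dim collagens, wild-type 1 was the highest of the 4 arrays in 13 (56.5%), beside 42.6% of all genes at or below the median.

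The brighter collagens lay further below the wild-type mean in knock-in 1 than in knock-in 2, and wild-type 1 was often their highest array. Wild-type 1 was the highest of the 4 arrays in 11 of the 19 (57.9%), beside 22.8% of all genes above the median. Knock-in 1 lay below both wild-type arrays in 12 of the 19 (63.2%), beside 32.8% of all genes above the median, and knock-in 2 in 10 (52.6%), beside 25.97%. The median of knock-in 1 minus the wild-type mean was -0.26, and that of knock-in 2 was -0.09. Knock-in 1 was below knock-in 2 in 15 of the 19, beside 61.9% of genes above the median. Without knock-in 1, 13 of the 19 were lower (median -0.09), beside 38.7% of genes above the median in the same fit. Without knock-in 2, 16 were lower (median -0.26), beside 48.5%. Without wild-type 1, 13 of the 19 were lower (median -0.10), beside 44.6%, and without wild-type 2, 16 (median -0.24), beside 43.8%.

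**Figure D3:**
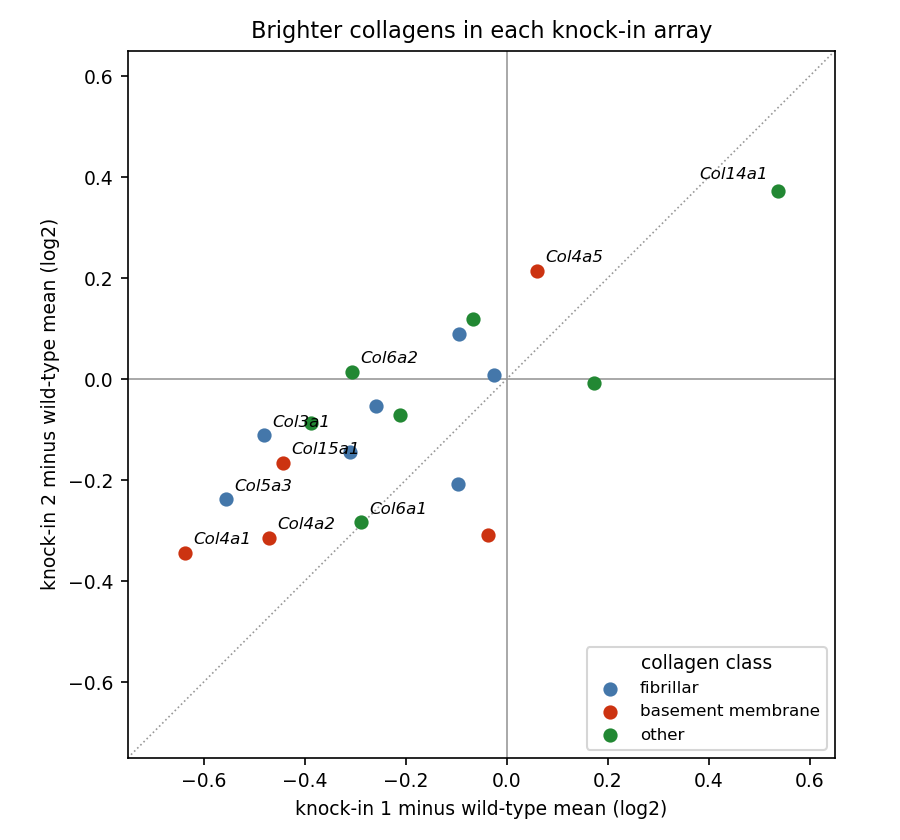
Value of each of the 19 brighter collagens in knock-in 1 (horizontal) and in knock-in 2 (vertical), each minus the wild-type mean (log2) and coloured by class, with a dotted line where both are equal. Both values are below 0 in 12 genes, above 0 in 2 (Col14a1 and Col4a5) and of opposite sign in 5, and both axes share the wild-type mean.

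Probe sets that did not represent a gene gave another reading of the same RNA. Of 20 such probe sets of brighter collagens, 15 were lower in knock-in hearts, and 15 had the sign of the probe set that represented the gene. Of the 9 that were themselves above the median of all genes, 7 were lower and 8 had the same sign. The exception was Col8a1, at 0.03 in its second probe set. Probe sets of 1 gene read the same samples and are not replicates.

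Genes that modify, assemble or bind collagen were about as often higher as lower. Of 94 listed genes 87 were measured, and none passed over all genes (smallest adjusted p of 0.237, limma). Of the 87, 43 had a higher mean, 43 a lower one and 1 (Nid1) equal means. At an unadjusted p under 0.05, 6 were higher and 3 lower, counts near the shares of all genes (4.40% and 2.99%). The list of basement membrane partners had 16 measured members, 8 higher, 7 lower and Nid1 (median 0.01), with 3 higher and 1 lower at that p, beside the same shares. Lamb2, the laminin beta chain of mature muscle basement membrane, was at 9.07 and 9.06 in wild-type and at 9.62 and 9.64 in knock-in hearts. Its difference was 0.56 (from 0.34 to 0.79, 1.48-fold higher, adjusted p of 0.237), with the arrays of each group nearly coinciding. Lama2, the alpha chain of muscle laminin, was at 10.45 and 10.16 against 10.63 and 10.75, a difference of 0.39, and Nid2, a nidogen that bridges laminin and type IV collagen, differed by 0.28. In these 3 genes, named for their p, both knock-in arrays lay above both wild-type arrays, whereas in Col4a1 and Col4a2 they lay below. Of the 16 partners 6 were higher and 2 lower without overlap. The shares were 26.7% and 17.2% among genes above the median, where 13 of the 16 lie. The 2 lower ones were Pxdn, at -0.23, and Lamb3. Lamb3, a chain of epithelial laminin, differed by -0.40.

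**Figure D4:**
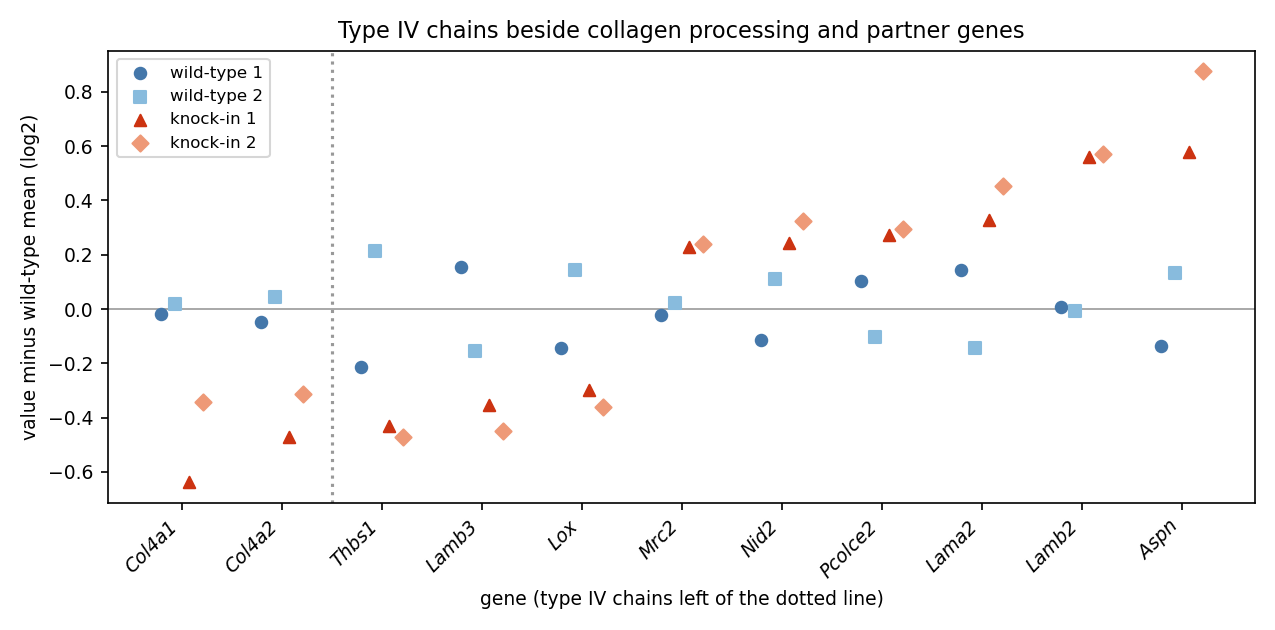
Value of each array minus the wild-type mean (log2) for Col4a1 and Col4a2, left of the dotted line, and for the 9 collagen processing and partner genes at an unadjusted limma p under 0.05. The type IV chains lie at -0.31 or below in both knock-in arrays. Of the basement membrane partners shown, Lamb2, Lama2 and Nid2 lie above 0 in both and Lamb3 lies below 0 in both.

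The 14 proteoglycans and glycoproteins that bind fibrils had a median of 0.11, with 9 higher and 5 lower. Aspn, a small leucine-rich proteoglycan that binds collagen, was at 7.04 and 7.31 in wild-type and at 7.75 and 8.05 in knock-in hearts, a difference of 0.73 (from 0.37 to 1.08, 1.66-fold higher, adjusted p of 0.327). In 7 of the 14 the knock-in arrays were higher without overlap, beside 26.7% of genes above the median, where 13 of the 14 lie. Decorin (Dcn), a proteoglycan on the fibre surface, differed by 0.12.

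The 19 genes of hydroxylation, glycosylation and folding in the endoplasmic reticulum had a median of -0.01, with none at an unadjusted p under 0.05. The one of smallest p was P3h4, a partner of collagen lysyl hydroxylation (-0.16), and the collagen chaperone Serpinh1 differed by -0.06. Of 12 genes of propeptide cleavage and cross-linking (median -0.01), the cross-linking enzyme Lox was at 6.98 and 7.27 in wild-type and at 6.83 and 6.76 in knock-in hearts, a difference of -0.33. Lox lay at or below the median of all genes, and with its probe sets averaged the difference was -0.16. The enhancer of propeptide cleavage Pcolce2 differed by 0.28. Of 9 collagen receptors (median 0.02) only the collagen uptake receptor Mrc2 was at that p, at 0.23, and its direction depends on the probe set, at -0.24 in the one listed first and -0.00454 averaged. The 17 genes of the transforming growth factor beta arm, the main inducer of collagen transcription in fibroblasts, had a median of -0.09 with 11 lower. Thbs1, which can activate the latent growth factor, differed by -0.45 (7.41 and 7.83 against 7.19 and 7.15).

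Markers of the cells that make collagen were read beside these values. In a bulk sample, fewer cells of a type and less RNA per cell cannot be told apart. Of 10 fibroblast markers 7 were higher and 3 lower (median 0.10). Their log2 summed level, weighted to the brightest, Gsn (0.09) and Dcn (0.12), ran from 14.996 to 15.01 in wild-type and from 15.08 to 15.12 in knock-in arrays. Without overlap 5 were higher and 1 lower, beside 26.7% and 17.2% of genes above the median, where all 10 lie. At an unadjusted limma p under 0.05 were Pi16 (0.23) and Mfap5 (-0.24), beside 6.07% higher and 3.66% lower among those genes. Of the 10 fibroblast markers, Dcn and Lum also stand among the 14 fibril-binding genes. The 8 endothelial markers had a median of -0.09 with 5 lower and a summed level of 12.93 and 12.86 in wild-type and 12.76 and 12.97 in knock-in hearts, lowest in knock-in 1. Knock-in 1 was also the lowest array in 11 of the 19 brighter collagens (57.9%), beside 24.1% of genes above the median. The 9 smooth muscle and pericyte markers had a median of -0.02 with 6 lower. Their summed level was 14.37 in both wild-type arrays against 14.28 and 14.25. That sum is weighted to the markers of highest value, Rgs5 (-0.06) and Acta2, smooth muscle actin (-0.30). Without overlap 3 were lower and 2 higher, the latter Pdgfrb (0.20) and Kcnj8 (0.15). The shares were 17.2% and 26.7% among genes above the median, where 8 of the 9 lie. All 8 hepatocyte markers were higher (median 1.31), with a summed level of 9.83 and 9.32 against 10.73 and 11.40, higher in knock-in 2. The part of any of these cells in the collagen values was not tested.

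Markers of the remaining cell types had medians from -0.03 to 0.07, with single genes that differed more. The median was 0.07 over 7 macrophage markers, 0.05 over 3 erythrocyte, 0.02 over 4 adipocyte, -0.02 over 8 cartilage, -0.02 over 4 Schwann cell and -0.03 over 6 epicardial markers. Of 7 macrophage markers 6 were higher, 5 without overlap, beside 26.7% of genes above the median, where 5 of the 7 lie. Their summed level was 12.73 and 12.82 in wild-type and 12.86 and 12.93 in knock-in hearts. The adipocyte hormone Adipoq differed by 1.13, beside -0.08 for Cidec, 0.03 for Lep and 0.01 for Retn. Of the 8 cartilage markers 3 were higher, Cnmd by 0.49, and 5 lower, Matn1 by -0.34, both without overlap. No marker of these lists passed over all genes. None of the adipocyte or epicardial markers and 2 of the 8 cartilage markers lay above the median of all genes. The part of these cells in the collagen values was not tested either.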

How the data were processed

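Total RNA of 4 mouse heart samples had been hybridised to Affymetrix arrays. The deposited values are log2 expression values, made by the authors with RMA in Affymetrix Expression Console per the submitters' processing notes (version: not given in the sources used here). The method subtracts background, equalises probe distributions and summarises each probe set, which can compress small differences in dim ones. The platform annotation gave 1 symbol to 34945 of 45101 probe sets, and symbols were updated through RefSeq (GRCm38.p6). Each of 18193 genes was read from its probe set of highest mean, with no filter on dim values. Knock-in minus wild-type was fitted with limma 3.58.1 in R 4.3.3 on the whole gene table (lmFit, eBayes, genotype alone, two-sided, Benjamini-Hochberg at 0.05), after a check on simulated data. With 2 arrays a group the smallest p of an exact permutation test is 0.333. Means within 1e-09 count as equal. The number of arrays limits the precision. Members, classes and lists were chosen with earlier results of these data known. Genes named were the collagens above the median of all genes, members with an unadjusted p under 0.05, partners of head-to-head type IV pairs and, in each list of collagen processing and partner genes, those at that p or the one of smallest p. Other genes given with a value were chosen after it was seen. Alternatives were a replicate block, a trended robust prior, other scalings, probe set choices and filters, and leaving out each array. Sequences are from RefSeq (GRCm38.p6), which held upstream windows for 33 of the 42 genes.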

Additional observations from a re-analysis of the deposited data

How the results depend on the processing

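No collagen gene passed over all genes in any of the 12 alternatives, in which the smallest adjusted p among collagens ran from 0.128 (trended robust prior) to 0.989 (without knock-in 2). With limma as used, 5 collagens had an unadjusted p under 0.05. The count of collagens higher at that p was 1, became 2 with the replicate block and 0 with averaged probe sets, and ran from 0 to 3 without single arrays. The count lower at that p was 4, beside 2.99% of all genes. It became 7 with a trended robust prior (3.16% of all genes in the same fit) and 7 after quantile normalization (3.35%). The median over all collagens, -0.06, ran from -0.18 to -0.0220 without single arrays, and was -0.0228 with arrays centred and -0.16 in brighter genes. The fibrillar median, -0.01, was -0.16 in brighter genes and -0.17 with averaged probe sets, and ran from -0.16 to 0.0188 without single arrays. The basement membrane median, -0.20, was -0.30 in brighter genes, -0.13 with averaged probe sets, -0.13 with the probe set listed first and -0.17 for type IV alone, and ran from -0.28 to -0.12 without single arrays. The median of the others, -0.05, was -0.0157 with arrays centred and ran from -0.13 to 0.0029 without single arrays. Of 358 values of 30 named genes under the alternatives, 13 turned sign, in 6 genes. They were Col1a2 (0.0354 with arrays centred, from -0.14 to 0.13 without single arrays), Col5a1 (0.0293 with arrays centred, from -0.16 to 0.14 without single arrays), Col20a1 (-0.0118 with averaged probe sets, from -0.21 to 0.26 without single arrays), Col16a1 (from -0.00740 without knock-in 1 to 0.17), Col6a2 (from -0.31 to 0.0147, the latter without knock-in 1) and Mrc2 (-0.00454 with averaged probe sets, -0.24 with the probe set listed first). The cause of these changes was not tested. Where an array is left out, the lone array of its group is assumed to vary like the other. The sources used here do not say whether the replicate numbers pair the samples. Deviations of same-numbered arrays correlated at -0.03 over all genes and at -0.15 over those above the median. With so few arrays these values cannot exclude a pairing. The replicate block made no collagen pass, with a smallest adjusted p of 0.741.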
